A study of Rattus norvegicus with 6 samples.

Results

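Plau, Plaur, Plat, Serpine2 and Serpinf2 make up the plasminogen activator system described here, measured in rat pituitary organ culture with and without GnRH. The genes were selected on measured values, with the difference between GnRH and control arrays already known, and every probe set annotated with only one of these symbols was then taken. That gave 7 probe sets of 31042 on the array, for 5 genes of 14217 with a name: 2 probe sets each for Plau and Plaur and 1 each for the other 3 genes. Because this contrast chose the genes, their differences are given as a description, without p-values of their own.

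Gonadotropin-releasing hormone, GnRH, reaches the pituitary from the hypothalamus and drives its gonadotropes to release LH and FSH. The study had 3 samples given 10 nM GnRH and 3 control samples, with 1 array each. All came from pituitary organ culture of Rattus norvegicus, and the labels do not give the strain, sex or age of the animals, the length of treatment or any pooling. No label says that the samples of a group came from separate cultures or animals, so the spread between them may be technical. Values are log2 intensities (RMA-processed by the submitters), and each difference is the GnRH group mean minus the control group mean.

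Plasminogen activators are serine proteases that cut plasminogen into plasmin, a broad protease that dissolves fibrin, degrades extracellular matrix and activates latent growth factors. Plau encodes urokinase (uPA), which works at the cell surface bound to its receptor uPAR, encoded by Plaur. Plat encodes tissue plasminogen activator (tPA), which is abundant in neural and endocrine tissue. Serpins hold the system in check: protease nexin-1 (Serpine2) blocks urokinase, tPA and thrombin, and alpha2-antiplasmin (Serpinf2) blocks plasmin itself.

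The regions around the annotated starts of Plau, whose level differed between the groups, and of its receptor Plaur, whose level overlapped, are shown for comparison. They are RefSeq sequences of build GRCr8, 250 bases before to 50 after the start, on the minus strand at chr15:3511938-3512237 for Plau and on the plus strand at chr1:89181113-89181412 for Plaur, and the sequence table held promoters for 4 of the 5 genes, all but Plat. Capitals mark matches, on either strand, to the AP-1 motif TGANTCA, the cAMP response element TGACGTCA, the GC box GGGCGG or the TATA box TATAAA; marked matches did not overlap each other in these 2 sequences.

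Plau: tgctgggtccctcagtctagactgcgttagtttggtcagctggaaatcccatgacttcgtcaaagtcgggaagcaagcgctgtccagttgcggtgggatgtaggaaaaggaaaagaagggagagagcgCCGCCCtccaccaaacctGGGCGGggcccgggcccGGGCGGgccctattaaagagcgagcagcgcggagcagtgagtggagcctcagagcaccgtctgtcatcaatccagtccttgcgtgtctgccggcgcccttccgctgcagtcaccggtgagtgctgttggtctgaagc

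Plaur: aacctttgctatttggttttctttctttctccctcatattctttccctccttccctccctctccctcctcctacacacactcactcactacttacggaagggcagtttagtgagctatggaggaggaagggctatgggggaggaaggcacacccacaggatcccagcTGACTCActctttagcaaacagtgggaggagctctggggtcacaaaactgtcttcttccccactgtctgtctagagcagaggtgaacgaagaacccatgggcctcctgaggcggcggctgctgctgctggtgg

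The Plau window held 3 GC boxes, whose first bases lay at -122, -104 and -87 from the start, and no AP-1, cAMP response element or TATA match. The Plaur window held 1 AP-1 match, TGACTCA, at -83 and none of the other 3 motifs. Of 33469 promoter windows of this length, 33.1% held a GC box, 7.33% an AP-1 match, 1.83% a cAMP response element and 14.2% a TATA box. Serpine2 had 6 GC box matches and Serpinf2 no match to any of the 4 motifs. A match is a description of the letters and not of binding.

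Plau mRNA was lower in GnRH samples, and this held on both of its probe sets. On the brighter one (1387675_at) the log2 values were 7.38, 7.30 and 7.11 in GnRH samples, against 7.91, 8.20 and 8.24 in controls. On the other (1398287_at) they were 6.70, 6.40 and 6.33 in GnRH samples, against 7.29, 7.25 and 7.15 in controls. Each GnRH array lay below all 3 controls on both probe sets, with a gap between the groups on each.

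The group means on the brighter Plau probe set were 7.26 ± 0.14 with GnRH and 8.12 ± 0.18 in controls (SD, n = 3 each), a log2 difference of -0.85 ± 0.11 (SE) with a 95% interval from -1.11 to -0.60. GnRH samples thus had 0.553 times the control intensity. On the other probe set the means were 6.47 ± 0.20 with GnRH and 7.23 ± 0.07 in controls, a difference of -0.75 ± 0.11 with an interval from -0.99 to -0.51 and a ratio of 0.594. The 2 probe sets measure the same transcript in the same RNA and are not replicates of the treatment. Averaged over both, Plau differed by -0.80 ± 0.10.

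**Figure D1:**
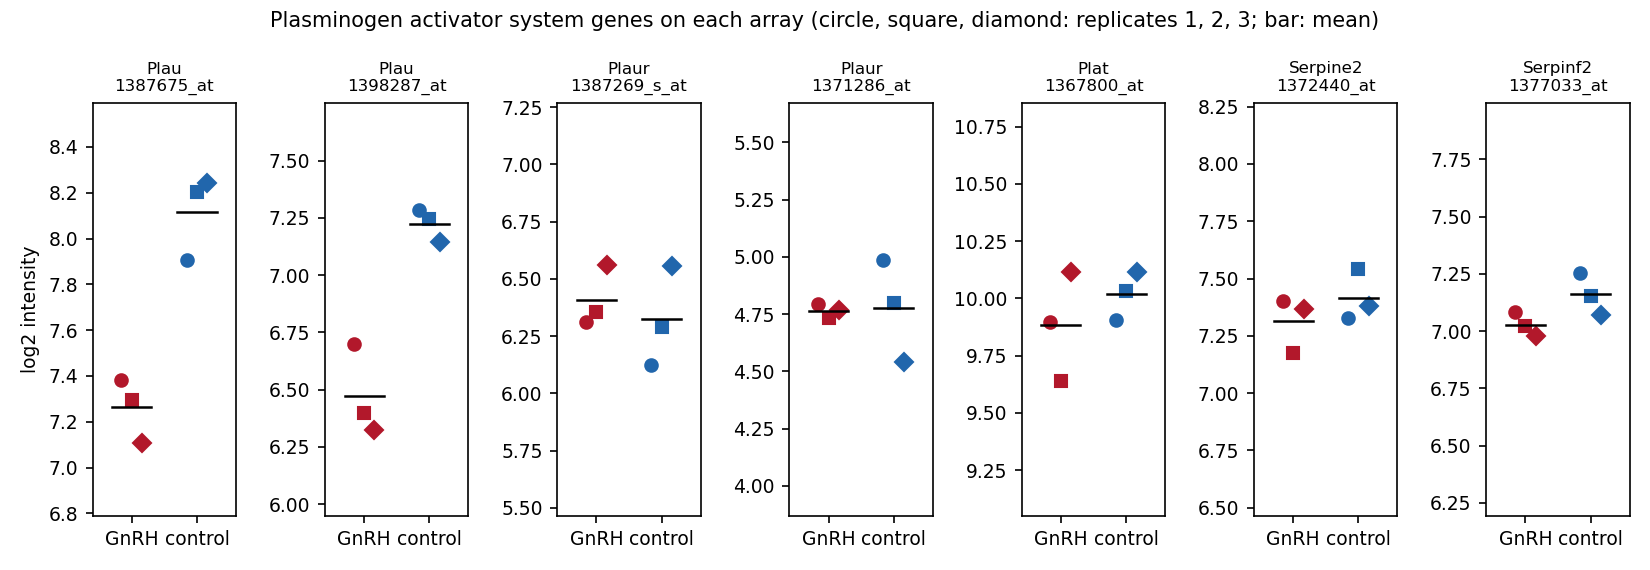
Log2 intensity of each probe set of the 5 genes on each array, with GnRH left of control, replicate marked by symbol and group mean by a bar; each panel spans the same range of the log2 scale. The groups are apart on both Plau probe sets and overlap on the other 5.

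The urokinase receptor showed no such gap. Plaur had log2 values of 6.31, 6.36 and 6.56 in GnRH samples, against 6.12, 6.29 and 6.55 in controls on its brighter probe set (1387269_s_at), a difference of 0.09 ± 0.12 (SE; 95% interval -0.18 to 0.36). On its dim probe set (1371286_at) it had 4.80, 4.73 and 4.77 in GnRH samples, against 4.99, 4.80 and 4.54 in controls, a difference of -0.011 ± 0.11 (interval -0.26 to 0.24). The groups overlapped on both, and the 2 probe sets had opposite signs. In controls the 2 probe sets ran in opposite directions, with control 3 highest on the brighter one and lowest on the dim one.

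Plat, the other activator, overlapped as well. Its log2 values were 9.90, 9.64 and 10.12 in GnRH samples, against 9.91, 10.03 and 10.11 in controls. GnRH sample 2 was lowest and GnRH sample 3 was level with the highest control. The difference was -0.13 ± 0.12 (95% interval -0.41 to 0.14).

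The inhibitors lay slightly below the control mean without separating. Serpine2 had 7.40, 7.18 and 7.37 in GnRH samples, against 7.33, 7.54 and 7.38 in controls, a difference of -0.10 ± 0.10 (95% interval -0.32 to 0.12). Serpinf2 had 7.08, 7.02 and 6.98 in GnRH samples, against 7.26, 7.15 and 7.07 in controls, a difference of -0.13 ± 0.09 (interval -0.33 to 0.06). For Serpinf2 the overlap was narrow, since only GnRH sample 1 reached the lowest control. The intervals of all probe sets other than those of Plau include 0, which does not show that these transcripts were unaffected, and whether Plau's difference exceeds theirs was not tested.

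**Figure D2:**
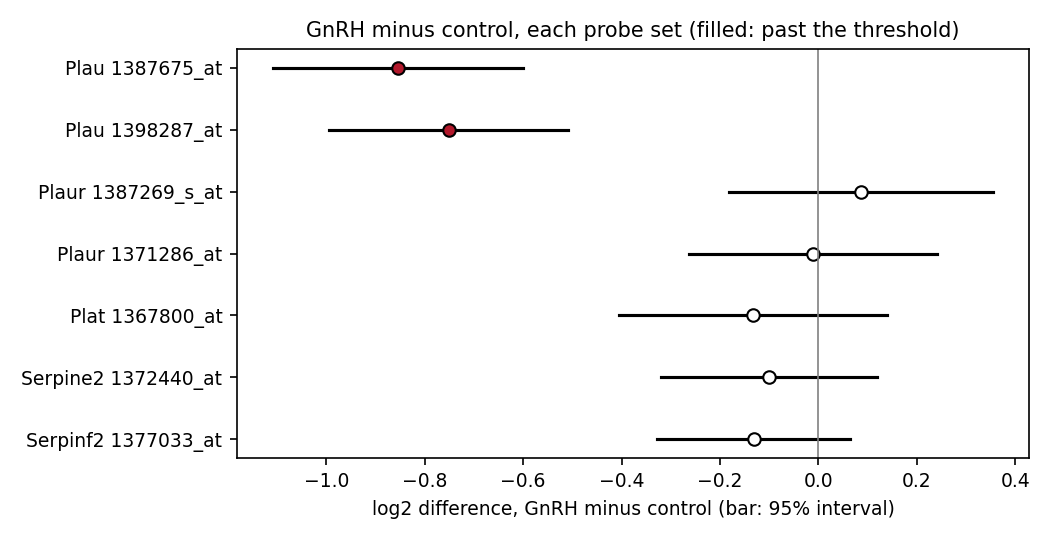
Log2 difference of each probe set, GnRH minus control, on the horizontal axis, with its 95% interval from limma as a bar. The intervals of the 2 Plau probe sets end at -0.60 and -0.51, and those of the other 5 span 0.

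In the fit over all probe sets (limma, Benjamini-Hochberg adjusted p under 0.05) both Plau probe sets passed, as lower, and the other 5 did not pass. The background was 0.0419% of all probe sets lower and 0.464% in either direction, that is 13 and 144 of 31042. By size, the Plau probe sets ranked 4 and 7 among those 13. The groups did not overlap, with GnRH lower, in 2 of the 7 probe sets and in 9.62% of all. The median log2 difference was -0.13 over the 7 probe sets and -0.025 over all. These counts describe genes chosen from this contrast, and nothing is read from them. The Plau calls depended on single arrays: without GnRH 2, GnRH 3 or control 2, 0 of the Plau probe sets passed, and without control 1 only the brighter one did.

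Control 3 stood apart from the other controls on the array as a whole. Its log2 values correlated across probe sets (not independent of each other) at 0.983 and 0.986 with controls 1 and 2, and at 0.988 to 0.991 with the GnRH arrays. Its mean log2 level of Xist, the RNA of the inactive X chromosome in female cells, was 7.34, close to 7.14 to 7.16 in GnRH arrays and unlike 4.12 and 3.98 in controls 1 and 2. The GnRH mean of Plau was lower than the controls on either side of this division. Against control 3 alone it differed by -0.98 on the brighter probe set and -0.67 on the other. Against controls 1 and 2 it differed by -0.79 on both. Control 3 was the highest control on the brighter Plau probe set and the lowest on the other. It is 1 array, and the part of this division in the Plau difference was not tested.

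**Figure D3:**
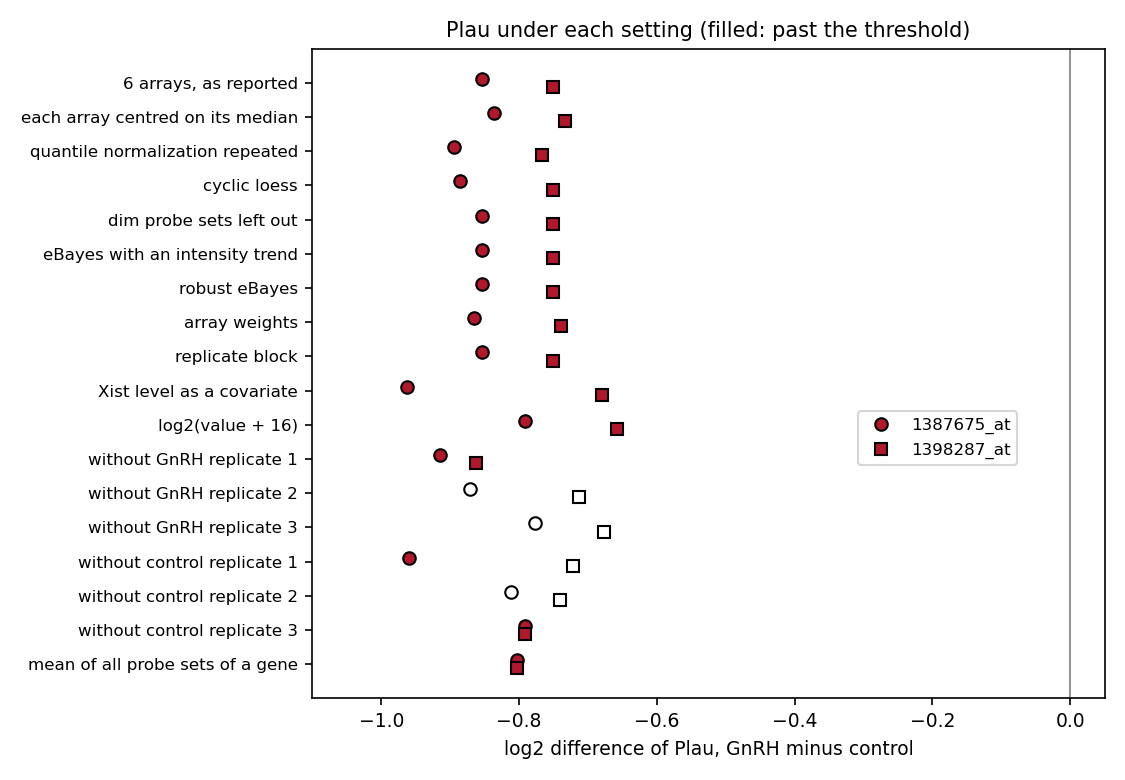
Log2 difference of Plau, GnRH minus control, on its 2 probe sets under each setting; filled symbols are past an adjusted p of 0.05 and open ones are not. All values lie below 0, from -0.96 to -0.66, and the open symbols are all fits with 1 array left out. For gene means, both symbols show the mean of the 2 probe sets.

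The tissue label matched the hormone transcripts. Gh1, the growth hormone gene, had log2 values of 14.09 to 14.18 in GnRH samples, against 14.20 to 14.25 in controls. Prl, the prolactin gene, had 14.16 to 14.21 in GnRH samples, against 13.83 to 14.15 in controls. The groups were narrowly apart on both, with Gh1 lower (-0.08) and Prl higher (0.24) in GnRH samples. Of the 8 hormone cell genes listed, Gnrhr alone passed the threshold, as higher. In that list 4 were above and 4 below 0, with a median of 0.051, from -0.82 for Pomc to 1.12 for Gnrhr. The summed intensity of 7 folliculostellate and stem-like markers was 1354 to 1522 in GnRH samples, against 1576 to 1623 in controls, but that gap rested on Anxa1 (-0.48): the other 6 summed to 1002 to 1058 in GnRH samples and 871 to 1179 in controls, 3 of the 7 markers were above 0, none had groups apart, and the median difference was -0.084. The sum of 8 posterior lobe and glial markers was 773 to 1043 in GnRH samples, against 1052 to 1413 in controls, and that gap rested on Gfap: the other 7 summed to 718 to 926 in GnRH samples and 809 to 923 in controls, 4 of the 8 were above 0, and the median was -0.036.

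Gfap, an astrocyte and pituicyte filament protein, had the largest difference of those glial markers, with log2 values of 7.69, 6.47 and 5.76 in GnRH samples, against 7.92, 8.97 and 8.94 in controls (difference -1.97 ± 0.42, limma adjusted p = 0.0834). The vasopressin gene Avp was also lower, at -0.57 with its groups apart, and the oxytocin gene Oxt was at -0.43 with overlap. The neurofilament gene Nefl lay the other way, at 0.45, with its groups apart. In the 5 lists of other cell types 0 markers passed the threshold. The summed markers of macrophages and leukocytes overlapped (602 to 650 in GnRH samples, 620 to 702 in controls). By gene, 6 of these 8 were below 0, with a median of -0.12. The sums of fibroblast and pericyte markers overlapped as well (962 to 1286 in GnRH samples, 985 to 1345 in controls). Of those, 4 were above and 4 below 0, with a median of 0.020. The sums for endothelium were 754 to 807 in GnRH samples, against 740 to 747 in controls, so they were narrowly apart with GnRH higher. No single endothelial marker had its groups apart, 4 were above and 3 below 0, and the median was 0.022. The part of any of these in the Plau difference was not tested. In whole-organ RNA, fewer cells of a type and less RNA per cell cannot be told apart.

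Other genes of the system were read from 4 lists of 66 genes, of which 62 could be matched to a probe set. None of the 62 passed the threshold in the limma fit, against a background of 0.605% of 14217 genes taken by their brightest probe set. At an unadjusted p under 0.05 there were 14 of 62, or 22.6%, against 13.2% of all genes. The groups did not overlap in 13 of 62, or 21.0%, against 17.3% of all genes. Their median log2 difference was -0.00078, with 31 above and 31 below 0, and that of all genes was -0.0089.

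Plasminogen and its direct regulators lay near 0. In that list 0 of 10 genes passed, with 2 above 0, 8 below 0 and a median of -0.07. Plg, the plasminogen gene itself, had 5.36, 5.37 and 5.42 in GnRH samples, against 5.71, 5.34 and 5.38 in controls; it is named for its role and not by the size of its difference. The smallest p-values belonged to Cpb2, a carboxypeptidase that protects fibrin (-0.18), and neuroserpin Serpini1, a tPA inhibitor of neurons (0.13). Next came protein C inhibitor Serpina5 (-0.13) and C1 inhibitor Serping1 (-0.13). For these genes the limma adjusted p ran from 0.467 to 0.712. Plg, Cpb2, Serpina5 and others of this list were dimmer than the median probe set (log2 6.04). Without detection calls they could not be told from background.

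Among genes for cell surface binding and clearance, the annexin A2 complex had the largest differences. Anxa2 and S100a10 encode the partners of a complex that binds tPA and plasminogen at the cell surface. Anxa2 had 10.73, 10.29 and 10.66 in GnRH samples, against 10.90, 11.01 and 11.14 in controls (-0.46 ± 0.12, limma adjusted p = 0.170). S100a10 had 10.29, 9.86 and 10.35 in GnRH samples, against 10.52, 10.50 and 10.72 in controls (-0.42 ± 0.13, limma adjusted p = 0.251). Neither passed, although the GnRH arrays lay below all controls for both, and a second, dim Anxa2 probe set (-0.23) overlapped. Without GnRH 2 the difference of S100a10 was -0.26.

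Lrpap1, the chaperone of the LRP clearance receptors, had 7.28, 7.63 and 7.58 in GnRH samples, against 7.22, 7.28 and 7.19 in controls (0.27 ± 0.11, limma adjusted p = 0.344). The margin between the groups was narrow for it, and its other probe set (0.09) overlapped. Itgb3, the integrin beta-3 chain, was at -0.17 ± 0.09 (limma adjusted p = 0.500). In this list 0 of 17 genes passed, 7 above and 10 below 0.

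Plasmin substrates and the growth factors it releases ran in both directions, with 0 of 19 past the threshold, 12 above and 7 below 0. Tgfb1, a growth factor that plasmin can release from its latent complex, had 5.50, 5.60 and 5.51 in GnRH samples, against 5.13, 5.18 and 5.18 in controls (0.37 ± 0.08, limma adjusted p = 0.0984). Its groups were apart, and control 3 lay with the other controls. The Tgfb1 probe set was dimmer than the median probe set (log2 6.04). Igfbp5, an IGF binding protein, was at 0.47 ± 0.12 on its brightest probe set (limma adjusted p = 0.134) and at 0.21 to 0.83 on the other 4. The laminin chain gene Lamb1 was at 0.63 ± 0.16 and the matrix proteoglycan decorin gene Dcn at -0.63 ± 0.18 (limma adjusted p = 0.140 and 0.194). With the Xist level as a covariate, a fit that rested on control 3, they were at 0.31 and -0.24.

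Of the coagulation and membrane protease genes 0 of 16 passed, with 10 above and 6 below 0. Thbd, the endothelial thrombin receptor thrombomodulin, had 6.52, 6.31 and 6.42 in GnRH samples, against 7.77, 7.60 and 6.57 in controls (-0.89 ± 0.25, limma adjusted p = 0.186; -0.74 and -1.16 on its other 2 probe sets). Control 3 lay next to the GnRH arrays there, and without it the difference was -1.26 (limma adjusted p = 0.000111), against -0.22 with the Xist covariate. Tissue factor, F3, which starts clotting, had 7.36, 7.10 and 7.27 in GnRH samples, against 7.61, 7.59 and 8.18 in controls (-0.55 ± 0.15, limma adjusted p = 0.184). For F3 control 3 lay farthest from the GnRH arrays, and without it the difference was -0.35, against -0.90 with the Xist covariate.

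The membrane protease matriptase, St14, was at -0.31 ± 0.11, and Spint2, which encodes an inhibitor of such proteases, at 0.31 ± 0.08 (limma adjusted p = 0.294 and 0.168). For Spint2 all GnRH arrays (10.93, 10.93 and 11.02) lay above all controls (10.61, 10.67 and 10.66). Without control 3, 8 of the 62 genes passed: Tgfb1, Lamb1, Bdnf and Tfpi as higher, and Dcn, Thbd, St14 and Hpn as lower. In that fit 8.45% of all genes passed, and 2309 probe sets in place of 144, so the count is no result about these genes. That comparison sets GnRH arrays with high Xist against controls with low Xist.

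**Figure D4:**
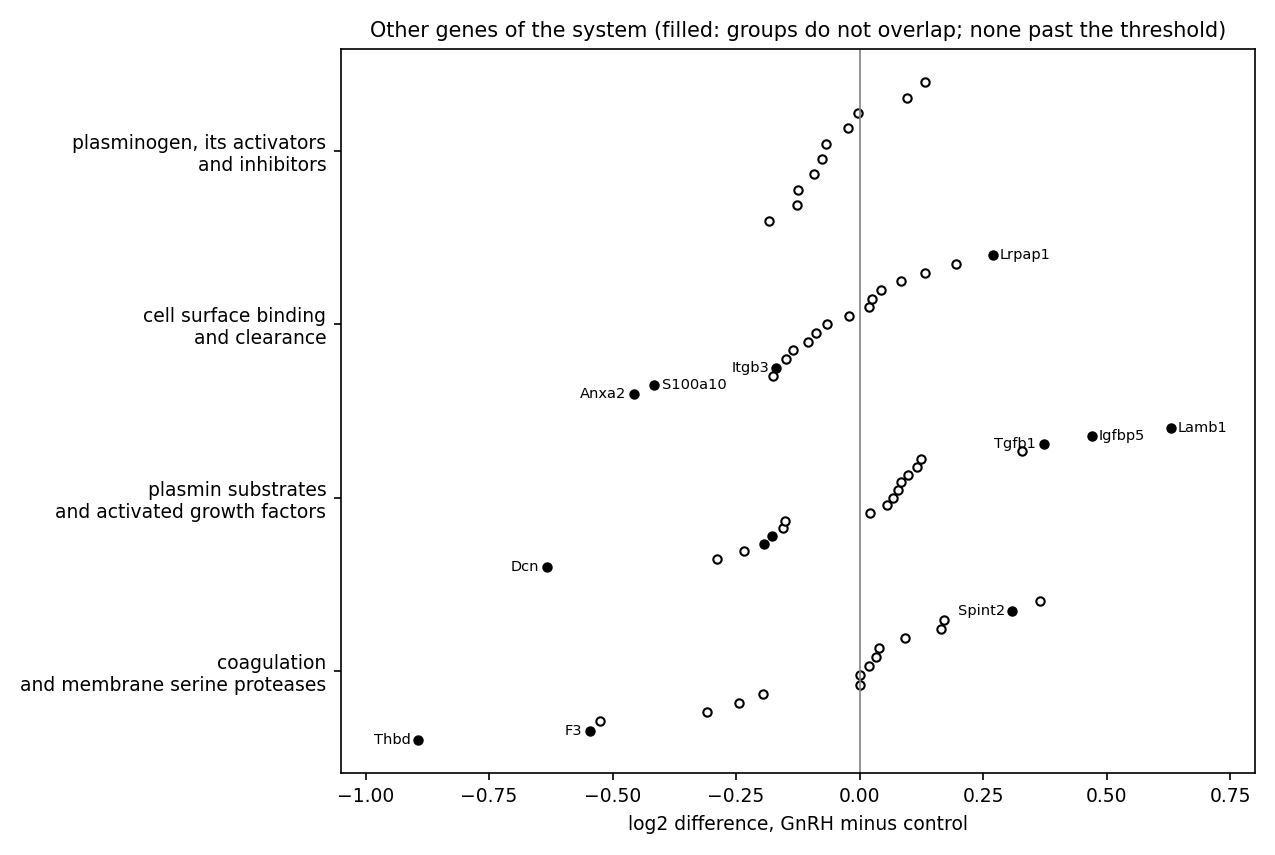
Log2 difference, GnRH minus control, of 62 other genes of the system in 4 lists, 1 point per gene; filled points are genes whose GnRH and control arrays do not overlap. None passed the threshold, and the points run from -0.89 for Thbd to 0.63 for Lamb1.

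The genes whose pattern over the 6 arrays was most like that of Plau were found by the root mean square difference of mean-centred log2 values, over 14212 other genes. The nearest was Lcn2, the siderophore-binding secreted protein lipocalin 2, at 0.109, followed by the secreted serine protease gene Prss23 (0.154), arginase gene Arg1 (0.165), the myo-inositol transporter gene Slc5a3 (0.173) and Frmd6 (0.180), a FERM-domain protein. The second Plau probe set was at 0.162 and the median gene at 0.457, so Lcn2 and Prss23 were nearer to the brighter Plau probe set than the other probe set of Plau was. Lcn2 had 9.005, 8.63 and 8.63 in GnRH samples, against 9.40, 9.67 and 9.54 in controls, with all GnRH arrays below all controls. These genes were picked for this likeness over the same arrays, so it is a description.

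**Figure D5:**
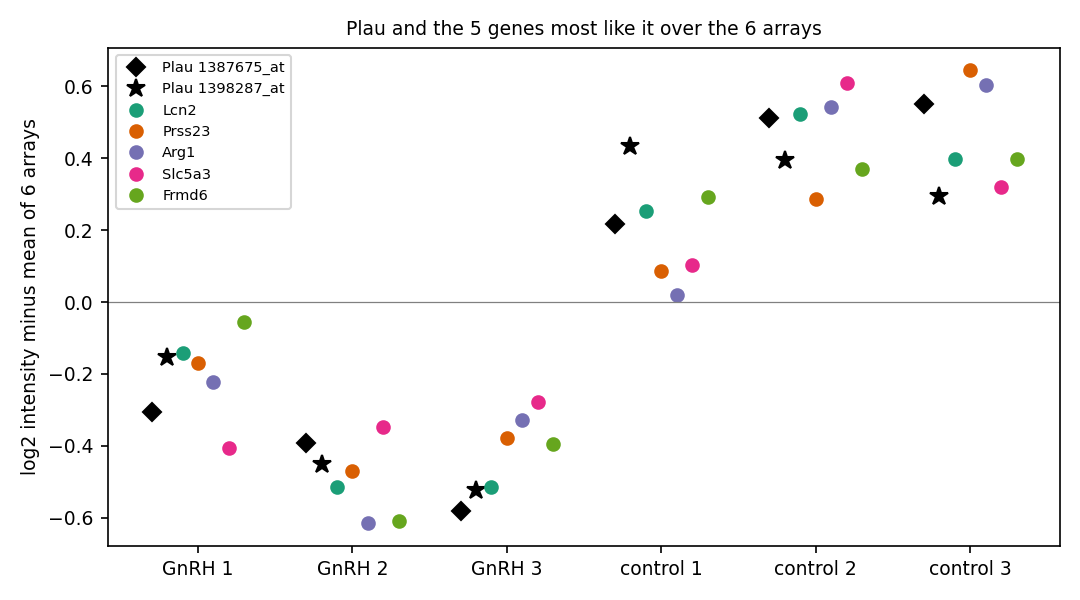
Log2 intensity minus the mean of the 6 arrays, for the 2 Plau probe sets and the 5 genes nearest to the brighter one; points within an array are set side by side. All GnRH values lie below 0 and all control values above 0, for each gene shown.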

How the data were processed

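Per the labels' protocols, Trizol-extracted, column-purified total RNA was converted to biotinylated cRNA, 1 array per sample. The deposited values are intensities on a linear scale made with RMA, per the submitters' processing notes; no software, version or filter is stated there. The table held 31042 probe sets, with 0 missing values; it carries no detection calls, and the number of arrays limits the precision. Median intensity was 64.5 to 67.0 per array. Samples were grouped by title.

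Names came from the array annotation, updated by gene identifier against GRCr8. Of the probe sets, 20826 had 1 symbol, 436 had several and 9780 were not listed; only the first were named. Log2 values without pseudocount were compared across all probe sets with limma 3.58.1 in R 4.3.3 (lmFit, eBayes, 2-sided, no covariate or filter), with Benjamini-Hochberg adjustment over all of them and a threshold of 0.05. A gene in a list stands for its brightest probe set. Named list genes are those past the threshold and up to 4 per list with the smallest p-values. The fit was tested on simulated data with independent noise and no array set apart. That test does not cover an array such as control 3. The 5 genes, the lists, motifs and alternatives were chosen with earlier results of these data known. Alternatives were 3 normalizations, a filter on dim probe sets, an offset, variance models, weights per array, a block for the replicate number, the Xist level as a covariate, other thresholds, gene means and each array left out.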

Additional observations from a re-analysis of the deposited data

How the results depend on the processing

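With all 6 arrays kept, both Plau probe sets passed in each of the alternatives tried, as did their mean (-0.80). These fits reuse the arrays on which the genes were chosen, so the passes are a description. The Xist covariate fit among them rested mainly on control 3. The log2 differences of Plau ran from -0.96 to -0.79 on the brighter probe set and -0.77 to -0.66 on the other. With 1 array left out they ranged from -0.96 to -0.78 and from -0.86 to -0.68, and 0 to 2 probe sets of the 5 genes passed; the cause was not tested. Of the other genes of the system, where 0 passed, 12 passed with array weights (lowest, 0.298, for control 3), where 10.6% of all genes passed, 3 with the Xist covariate, which rested on control 3 (0.942 of the control weight), where 1.72% of all genes passed, 1 with the replicate block (Dcn), where 0.964% did, 0 to 8 with 1 array left out, 1 at an adjusted p under 0.10 and 14 at an unadjusted p under 0.05; why the fits with weights, covariate or block called more was not tested.

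Among the 5 genes and the named list genes, signs turned for Plaur and Serpina5. The brighter Plaur probe set turned to -0.12 with the Xist covariate and ranged from -0.013 to 0.20 with 1 array left out. The dim one turned to 0.0063 with median centring, 0.029 with quantile normalization, 0.041 with cyclic loess and 0.20 with the Xist covariate. With 1 array left out it ranged from -0.13 to 0.095. The mean of both Plaur probe sets was at 0.038. Serpina5 turned to 0.032 with the Xist covariate and ranged from -0.22 to 0.0017 with 1 array left out. Same-numbered GnRH and control arrays had deviation correlations of 0.16, -0.049 and 0.16. The numbers were not taken as pairs, although these values cannot exclude pairing. The replicate block left both Plau calls in place and moved the count over all probe sets to 215, against 144. Without detection calls, dim probe sets such as the second one of Plaur could not be told from background.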

Other observations

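The measured genes on either side of Plau in the GRCr8 gene order, looked up after the data were seen, were Vcl and Camk2g. Vcl, the focal adhesion protein vinculin, had log2 values of 8.24, 8.20 and 8.75 in GnRH samples, against 8.65, 8.77 and 8.97 in controls (-0.40 ± 0.15, limma adjusted p = 0.314). Camk2g, a calcium/calmodulin-dependent kinase subunit, was at -0.09 ± 0.09 (limma adjusted p = 0.708). The groups overlapped for both. Among the neighbours of Plaur, Plat, Serpine2 and Serpinf2, only Serpinf1 and Cul3 had groups apart, in opposite directions. Serpinf1, which encodes the secreted serpin PEDF, lies next to Serpinf2. It had 6.32, 6.31 and 5.58 in GnRH samples, against 6.67, 6.90 and 6.44 in controls (-0.61 ± 0.19, limma adjusted p = 0.242). The groups of Serpinf2 overlapped, and the difference between Serpinf1 and Serpinf2 was not tested. Cul3, next to Serpine2, was higher in GnRH samples, at 0.22 ± 0.09 (limma adjusted p = 0.361). The other neighbours overlapped, from -0.12 for Smg9 to 0.18 for Mrpl44. Of all genes, 17.3% had groups apart in either direction.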
